A study of Mus musculus with 18 samples.

Results

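The genes described here are the 4 latent TGF-beta binding proteins (Ltbp1 to Ltbp4), the 3 TGF-beta ligands (Tgfb1 to Tgfb3) and the 3 TGF-beta receptors (Tgfbr1 to Tgfbr3). They were picked by gene symbol from the 53342 Ensembl identifiers of the count tables, where each of the 10 symbols matched 1 identifier. RNA was sequenced from Thy1+ cells sorted from the hearts of 3 inbred mouse strains, C57BL/6, C3H/HeJ and KK/HlJ, and the title of the series asks how the fibroblasts' reaction to injury varies with genetic background. In each strain the groups were ISO day 14, ISO day 21 and sham. ISO is isoproterenol, an agonist of beta-adrenergic receptors given by an implanted pump, and sham hearts had saline. The sham labels name no day, so the sham libraries of a strain served as the control for both days. Each of the 9 groups had 2 libraries. The labels give no genetic modification, sex or age, write the sorted cells as Thy1+ HE or Thy1+HE- without spelling out HE, and do not say whether the 2 libraries of a group came from separate animals. The p-values below therefore measure the spread between libraries, which may be technical.

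TGF-beta is made with a propeptide that keeps it inactive, and most LTBPs bind this latent complex by a disulfide bond and anchor it to fibrillin and fibronectin in the matrix. Ltbp2 is the exception: it binds fibrillin and is thought not to bind latent TGF-beta covalently. Once released, the ligand brings together the kinases Tgfbr2 and Tgfbr1, which phosphorylate SMAD proteins, while Tgfbr3 (betaglycan) is a coreceptor that presents ligand, above all Tgfb2. In the heart this pathway is best known for driving matrix production by fibroblasts.

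Totals ran from 7230741 to 26280685 counts per library, and the 10 genes had between 53 reads (Tgfb2) and 189319 reads (Ltbp4) in a library. All 10 passed the filter on low counts and were among the 15762 genes tested. The 6 fibroblast markers (Pdgfra, Tcf21, Col1a1, Dcn, Lum and Thy1) were detected in every library, with a summed level of 16894 to 27265 CPM (counts scaled to library size) in ISO and 16517 to 23001 CPM in sham libraries. The 10 macrophage and monocyte markers summed to 7.24 to 225 CPM in ISO and 12.4 to 22.4 CPM in sham libraries, and the 12 pericyte and smooth muscle markers to 1499 to 6043 CPM in ISO and 2128 to 7492 CPM in sham libraries. The 8 Schwann cell and glia markers summed to 55.3 to 67.7 CPM in ISO and 141 and 133 CPM in sham libraries of C3H/HeJ. In KK/HlJ they summed to 72.1 to 97.9 CPM in ISO and 110 and 98.8 CPM in sham libraries. These ranges did not overlap, but in KK/HlJ the nearest values were 97.9 and 98.8 CPM. In C57BL/6 the ranges overlapped, at 56.9 to 152 CPM in ISO and 119 and 113 CPM in sham libraries. Single markers did not all fall. Over both days the log2 fold change was positive for 4 of the 8 in KK/HlJ and for 3 in each other strain. How often sums of markers separate in this way was not counted. Endothelial markers (10) summed to 205 to 1037 CPM in ISO and 182 to 562 CPM in sham libraries, cardiomyocyte markers (8) to 55.7 to 322 CPM in ISO and 103 to 228 CPM in sham libraries, and epicardial markers (6) to 110 to 516 CPM in ISO and 174 to 433 CPM in sham libraries. The highest endothelial, macrophage and monocyte, and cardiomyocyte sums were all in C3H/HeJ ISO day 21 replicate 1. That library is not among the 4 described next as standing apart. The part of these other cells in the results below was not tested. In bulk RNA, fewer cells of a type and less RNA per cell cannot be told apart. Replicate 1 of 4 groups (sham of C3H/HeJ, and sham, ISO day 14 and ISO day 21 of KK/HlJ) stood apart, with a median correlation of 0.689 to 0.739 with the other libraries, against 0.795 to 0.889 for the remaining 14. Results are given below with and without these 4 libraries where the difference matters.

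On mm10 the binding proteins lie at chromosome 17, 75005568 to 75392512 (Ltbp1), chromosome 12, 84783212 to 84876532 (Ltbp2), chromosome 19, 5740904 to 5758532 (Ltbp3) and chromosome 7, 27305136 to 27337692 (Ltbp4). The ligands lie at chromosome 7, 25687002 to 25705077 (Tgfb1), chromosome 1, 186622792 to 186705989 (Tgfb2) and chromosome 12, 86056745 to 86079041 (Tgfb3). The receptors lie at chromosome 4, 47353222 to 47414931 (Tgfbr1), chromosome 9, 116084293 to 116175360 (Tgfbr2) and chromosome 5, 107106570 to 107289629 (Tgfbr3). All are annotated as protein coding. Genes whose exons overlap those of Ltbp2, Tgfb2, Tgfb3 and Tgfbr3 had 39 to 142 reads each in the 18 libraries. Since the strand setting of the counting is not given, reads of overlapping genes cannot be told apart.

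RefSeq promoters on GRCm38.p6 were at hand for 8 of the 10 genes, all but Tgfb3 and Tgfbr3. That of Ltbp2, the gene with the ISO response described below, and a promoter of Ltbp1, a paralog without such a call, are shown to let the upstream sequence be compared. Capitals mark CAGAC, the SMAD box, or its complement GTCTG, and TGACGTCA, the cyclic AMP response element; both strands were searched. The Ltbp2 stretch is chr12:84876533-84876741 on the minus strand, up to the first annotated base of the gene. The Ltbp1 stretch is chr17:75005279-75005528 on the plus strand.
Ltbp2: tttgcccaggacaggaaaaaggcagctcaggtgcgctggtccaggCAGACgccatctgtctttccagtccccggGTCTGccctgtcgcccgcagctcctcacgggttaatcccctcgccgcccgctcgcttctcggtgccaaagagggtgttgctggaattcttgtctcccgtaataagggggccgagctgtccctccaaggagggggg
Ltbp1: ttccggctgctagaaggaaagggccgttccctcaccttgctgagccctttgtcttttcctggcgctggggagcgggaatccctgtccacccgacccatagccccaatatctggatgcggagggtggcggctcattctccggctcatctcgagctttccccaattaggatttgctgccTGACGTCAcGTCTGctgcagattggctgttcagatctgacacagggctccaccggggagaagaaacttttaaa
Over the 250 bases before the RefSeq start, Ltbp2 held CAGAC at 205 and 176 bases before it, and this Ltbp1 promoter held TGACGTCA at 73 and CAGAC at 64. Another Ltbp1 promoter, chr17:75178531-75178780, is not shown and held CAGAC at 148 and 97. CAGAC was found in 7 of the 12 promoters of these 8 genes (of Ltbp1, Ltbp2, Ltbp3, Tgfb2, Tgfbr1 and Tgfbr2), against 42.2% of all 32851 promoters of this length. TGACGTCA was found in 1 of the 12, of Ltbp1, against 1.55% of all promoters. TATAAA, the TATA box, was found in 1, of Tgfb2, against 12.4%, and TGANTCA, the AP-1 site, and GGAATG, the TEAD site, in 0 of the 12, against 6.75% and 12.6% of all. A match only describes the letters of this window.

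Per exon length, Ltbp4 was by far the most abundant of the 10 genes. Its median over ISO libraries was 933 RPKM (reads scaled to exon length and to library size), against 855 RPKM in sham libraries. Ltbp3 stood at 91.4 RPKM in ISO and 69.4 RPKM in sham libraries, and Tgfb3 at 78.4 RPKM in ISO and 58.6 RPKM in sham libraries, and the ranges of these 2 genes overlapped. Tgfbr2 followed at 52.3 RPKM in ISO and 42.0 RPKM in sham libraries. Ltbp2 took a different place in the order by condition, with 27.2 RPKM in ISO libraries, next after Tgfbr2, and 8.49 RPKM in sham libraries, below Tgfbr3 (22.3 RPKM), Tgfb1 (21.2 RPKM) and Ltbp1 (17.7 RPKM). Tgfbr1 (9.64 RPKM in ISO and 5.87 RPKM in sham libraries) and Tgfb2 (7.93 RPKM in ISO and 5.37 RPKM in sham libraries) were the lowest in ISO hearts, and their ranges overlapped too. The order rests on medians, and neighbours in it overlapped over libraries except Ltbp4, which was above every other gene in each library.

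**Figure D1:**
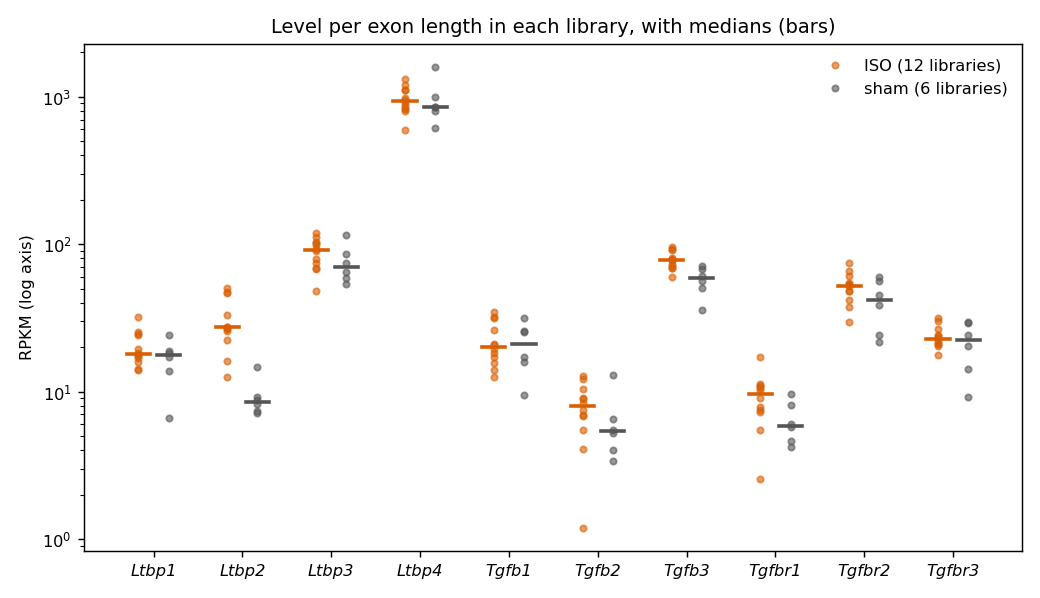
RPKM on a log axis for each of the 10 genes in the 12 ISO and 6 sham libraries (points), with the median of each condition (bars). Ltbp4 lies above all other genes, and the medians of Ltbp2 are 27.2 RPKM in ISO and 8.49 RPKM in sham libraries.

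Tgfb3 made up most of the ligand reads per length. Its median share of the summed RPKM of the 3 ligands was 73.6% in ISO libraries and 70.8% in sham libraries. Ltbp4 was 84.9% to 88.9% of the summed RPKM of the 4 binding proteins in ISO libraries and 87.5% to 91.6% in sham libraries. The share of Ltbp2 was 1.77% to 4.39% in ISO libraries (median 2.63%) and 0.658% to 1.25% in sham libraries (median 0.893%), and these ranges did not overlap. Tgfbr2 made up a median of 62.1% of the summed receptor RPKM in ISO libraries and 58.2% in sham libraries.

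Ltbp2 rose with ISO at both days, and it was the only one of the 10 genes called in these comparisons. Its level in C57BL/6 was 184 and 221 CPM with TMM scaling at ISO day 14 and 103 and 132 CPM at ISO day 21, against 75.6 and 67.8 CPM in sham libraries. In C3H/HeJ it was 218 and 385 CPM at ISO day 14 and 379 and 225 CPM at ISO day 21, against 58.9 and 121 CPM in sham libraries. In KK/HlJ it was 226 and 212 CPM at ISO day 14 and 412 and 269 CPM at ISO day 21, against 71.2 and 60.1 CPM in sham libraries. All 12 ISO libraries were above both sham libraries of their own strain, which held for 0.102% of the genes tested (16 genes), and 11 of 12 were above all 6 sham libraries. The exception was C57BL/6 ISO day 21 replicate 1, which was below C3H/HeJ sham replicate 2.

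Averaged over the 3 strains, the log2 fold change of Ltbp2 was 1.66 at ISO day 14 (SE 0.228; edgeR quasi-likelihood test, Benjamini-Hochberg adjusted p = 0.00211) and 1.61 at ISO day 21 (SE 0.228; adjusted p = 0.00325). The 2 comparisons share their sham libraries. Over both days it was 1.64 (SE 0.209; 95% confidence interval 1.20 to 2.07; adjusted p = 0.000621). Of the 15762 genes tested, 0.0381% were called at day 14 (6 genes), 0.0444% at day 21 (7 genes) and 0.0571% over both days (9 genes). Among the 10047 genes with a mean of at least 5 CPM, the fold change of Ltbp2 over both days was the 59th highest. The call held without each of the 18 libraries in turn and in each of the other fits tried. Without the 4 libraries that stood apart the log2 fold change was 1.54 at day 14 (adjusted p = 0.00366), 1.40 at day 21 (0.0113) and 1.47 over both days (0.00231).

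**Figure D2:**
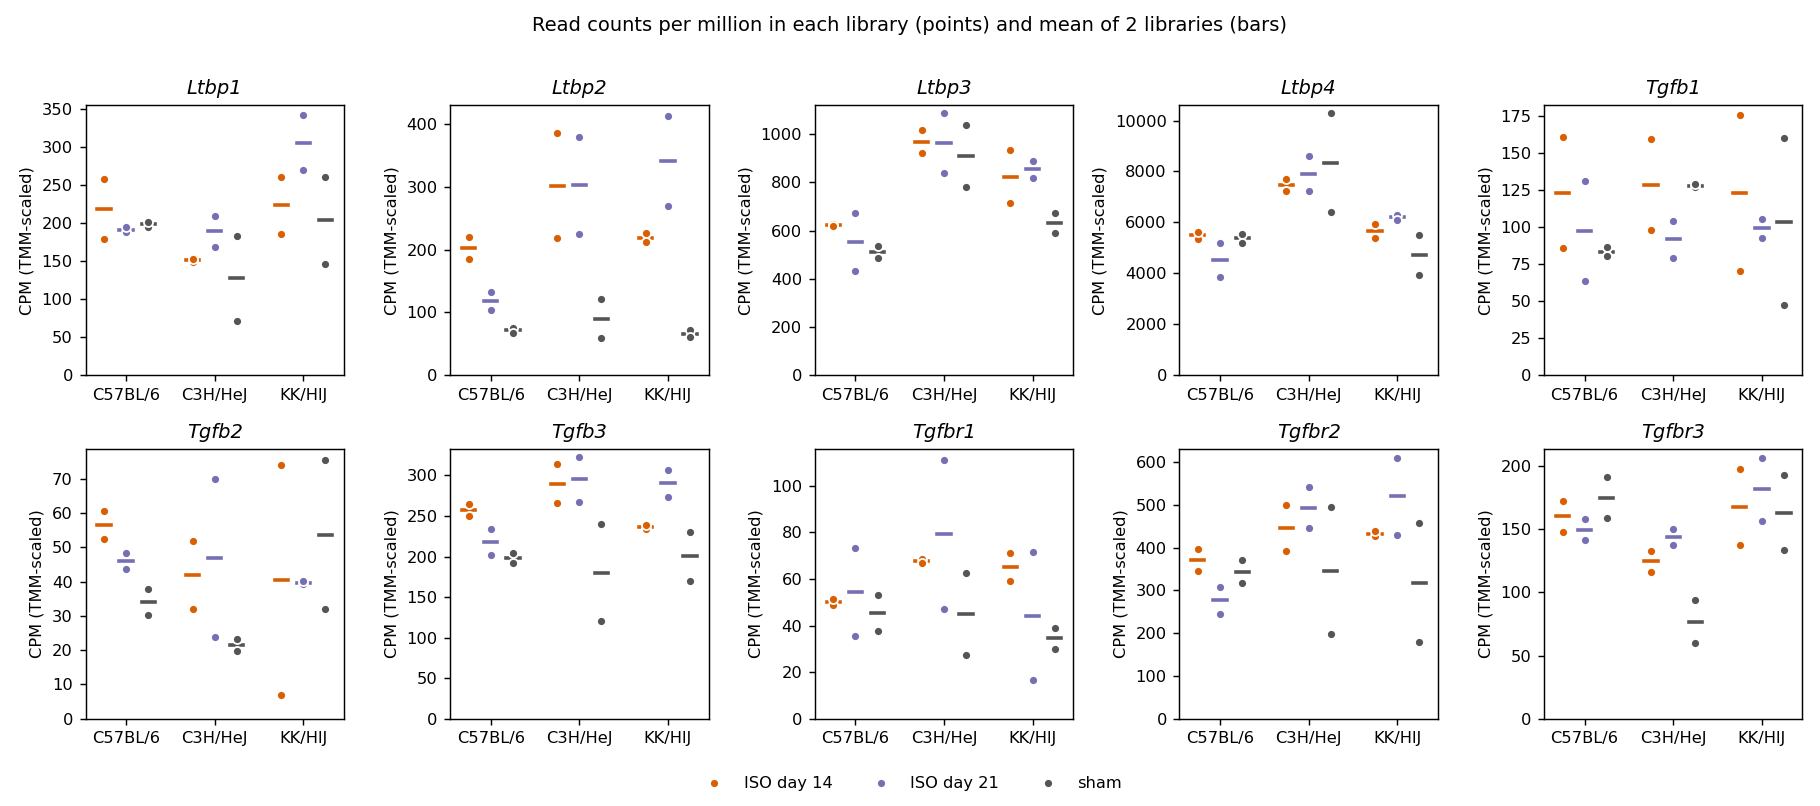
CPM of each gene in each library (points) and the mean of 2 libraries (bars), by strain, with ISO day 14, ISO day 21 and sham from left to right. Ltbp2 is higher in every ISO library than in both sham libraries of its strain, while the points of the other genes overlap between conditions in at least 1 strain.

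None of the 3 paralogs passed the test for ISO. Ltbp1 ran from 149 to 341 CPM in ISO libraries (median 191 CPM) and from 71.1 to 260 CPM in sham libraries (median 189 CPM). Its log2 fold change over both days was 0.27 (95% confidence interval -0.14 to 0.68; adjusted p = 0.913), or 0.045 without the 4 libraries that stood apart. Ltbp3 ran from 434 to 1088 CPM in ISO libraries (median 829 CPM) and from 488 to 1040 CPM in sham libraries (median 630 CPM), with a log2 fold change of 0.23 (-0.08 to 0.55; adjusted p = 0.875). Ltbp4 ran from 3862 to 8594 CPM in ISO libraries (median 6031 CPM) and from 3940 to 10282 CPM in sham libraries (median 5525 CPM). Its log2 fold change was 0.03 (-0.27 to 0.33; adjusted p = 1), and it turned to -0.15 without the 4 libraries that stood apart. The upper bounds of these intervals, 0.68 at most, lie below the lower bound of Ltbp2, 1.20.

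The ligands did not pass the test either. Tgfb3, the ligand with the most reads per length, was 265 and 250 CPM at ISO day 14 and 234 and 202 CPM at ISO day 21 in C57BL/6, against 205 and 192 CPM in sham libraries. In C3H/HeJ it was 314 and 266 CPM at ISO day 14 and 268 and 323 CPM at ISO day 21, against 120 and 240 CPM in sham libraries. In KK/HlJ it was 234 and 239 CPM at ISO day 14 and 307 and 274 CPM at ISO day 21, against 170 and 230 CPM in sham libraries. In 11 of 12 ISO libraries Tgfb3 was above both sham libraries of its strain, which 0.355% of genes reached, and the log2 fold change over both days was 0.45 (SE 0.168; 95% confidence interval 0.10 to 0.80). It had an unadjusted p of 0.0142 and an adjusted p of 0.602, where 6.69% of genes had an unadjusted p under 0.05. Over the other fits tried, the fold change of Tgfb3 ran from 0.23 to 0.56. The lower sham values of C3H/HeJ (120 CPM) and KK/HlJ (170 CPM) came from replicate 1, among the 4 libraries that stood apart. Tgfb1 ran from 63.4 to 176 CPM in ISO libraries (median 101 CPM) and from 47.7 to 160 CPM in sham libraries (median 107 CPM), with a log2 fold change of 0.08 (-0.46 to 0.62; adjusted p = 1). Tgfb2 ran from 6.89 to 74.0 CPM in ISO libraries (median 45.9 CPM) and from 19.6 to 75.4 CPM in sham libraries (median 31.1 CPM), with a log2 fold change of 0.41 (-0.37 to 1.19; adjusted p = 1). The lowest Tgfb2 value came from KK/HlJ ISO day 14 replicate 1, the library with the fewest reads and one of the 4 that stood apart. The value of Tgfb1 turned to -0.12 without KK/HlJ sham replicate 2, and that of Tgfb2 to -0.02 without KK/HlJ ISO day 14 replicate 2.

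Of the receptors, Tgfbr1, the type I kinase, ran from 16.7 to 111 CPM in ISO libraries (median 63.0 CPM) and from 27.3 to 62.6 CPM in sham libraries (median 38.4 CPM). Its log2 fold change over both days was 0.51 (95% confidence interval -0.09 to 1.12; adjusted p = 0.805), and ran from 0.36 to 0.79 over the other fits tried. Tgfbr2, the type II kinase, ran from 244 to 609 CPM in ISO libraries (median 428 CPM) and from 178 to 494 CPM in sham libraries (median 343 CPM), with a log2 fold change of 0.30 (-0.12 to 0.73; adjusted p = 0.889), or 0.0011 without the 4 libraries that stood apart. Tgfbr3 ran from 116 to 207 CPM in ISO libraries (median 149 CPM) and from 59.6 to 193 CPM in sham libraries (median 146 CPM), with a log2 fold change of 0.24 (-0.11 to 0.60; adjusted p = 0.903). The log2 fold change over both days was positive for all 10 genes, with a median of 0.29, against 52.2% of all genes and a median of 0.03 over all genes tested. That count did not hold in every fit: Ltbp4 was negative without the 4 libraries that stood apart, and leaving out 1 library turned Ltbp4 (to -0.067, without C3H/HeJ sham replicate 1), Tgfb1 or Tgfb2 negative.

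**Figure D3:**
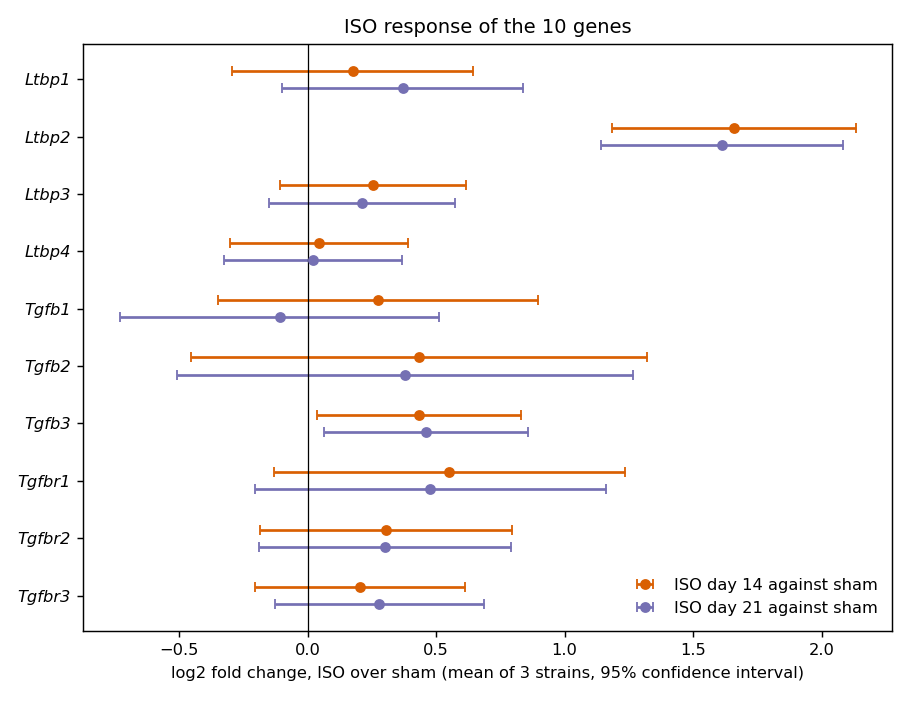
Log2 fold change of ISO over sham at day 14 and at day 21, as the mean over 3 strains with its 95% confidence interval, for each of the 10 genes. The intervals of Ltbp2 lie above 1, while those of the other genes include 0 except for Tgfb3, whose adjusted p was 0.877 at day 14 and 0.953 at day 21.

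Whether Ltbp2 moved more than the other 9 genes was tested on the log2 ratio of its count to theirs within each library, with an exact two-sided permutation test within strains (3375 arrangements, smallest p 0.000296, adjusted over the 9 ratios). Ltbp2 was singled out with its response in these data known, so the ratios are not independent of the fold change above. Relative to its paralogs, Ltbp2 rose by 1.31 against Ltbp1, 1.41 against Ltbp3 and 1.59 against Ltbp4 (adjusted p = 0.000444 for each). Relative to the ligands it rose by 1.54 against Tgfb1 (adjusted p = 0.0019), 1.37 against Tgfb2 (0.0173) and 1.16 against Tgfb3 (0.000444). Relative to the receptors it rose by 1.17 against Tgfbr1 (adjusted p = 0.027), 1.25 against Tgfbr2 (0.000444) and 1.39 against Tgfbr3 (0.000444). The ratio was above both sham libraries of the strain in 12 of 12 ISO libraries for Ltbp1, Ltbp3, Ltbp4, Tgfb3, Tgfbr2 and Tgfbr3, in 11 for Tgfb1, in 10 for Tgfb2 and in 9 for Tgfbr1. Without the 4 libraries that stood apart, the ratios to Tgfb2 (1.06) and Tgfbr1 (0.69) no longer passed (adjusted p = 0.138 for each). The adjusted p for Tgfb2 was 0.083 without KK/HlJ sham replicate 2 and 0.063 when sham replicate 1 of C3H/HeJ was left out. For Tgfbr1 it reached 0.147 when C3H/HeJ sham replicate 1 was left out. Leaving out sham replicate 2 of KK/HlJ gave 0.108, replicate 1 of the same group 0.0684, and sham replicate 2 of C57BL/6 0.0667.

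**Figure D4:**
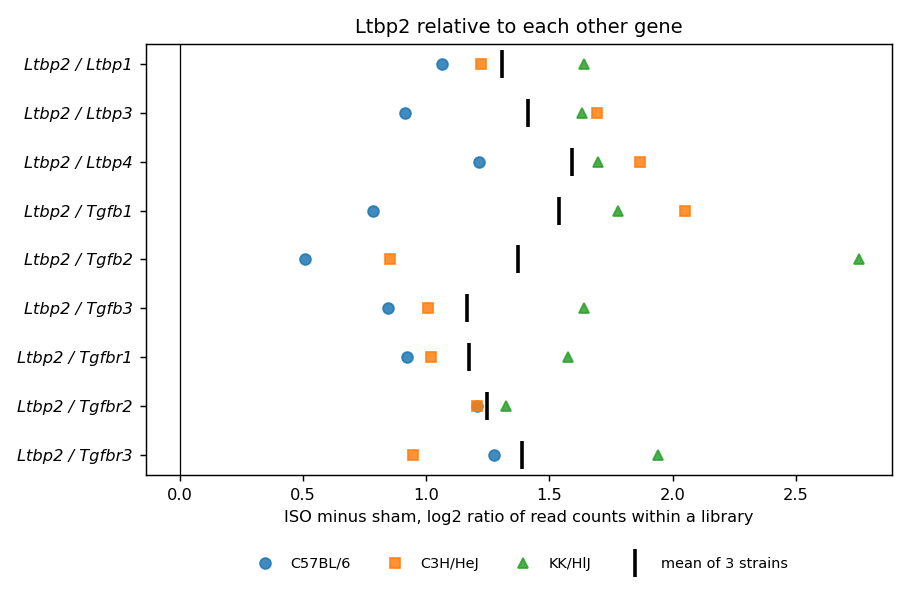
Difference between ISO and sham libraries in the log2 ratio of the Ltbp2 count to that of each other gene, by strain (symbols) and as the mean of 3 strains (bars). All 27 strain values are above 0, from 0.51 (Tgfb2 in C57BL/6) to 2.75 (Tgfb2 in KK/HlJ).

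Within single strains, with 2 libraries a group, edgeR did not call Ltbp2. Its log2 fold change over both days was 1.11 in C57BL/6 (SE 0.351; adjusted p = 1), 1.75 in C3H/HeJ (SE 0.363; adjusted p = 0.219) and 2.06 in KK/HlJ (SE 0.371; adjusted p = 0.0728). The edgeR test called 0% of genes in C57BL/6 (0 genes, 339 at an unadjusted p under 0.05, 5 by DESeq2, 1 by voom), 0.00634% in C3H/HeJ (1 gene, Postn, with a log2 fold change of 2.55 and an adjusted p of 0.0145) and 0% in KK/HlJ (0 genes, 1048 at an unadjusted p under 0.05, 147 by DESeq2, 0 by voom). With DESeq2 the adjusted p of Ltbp2 was 0.000292 for C3H/HeJ, 1.06e-05 for KK/HlJ and 0.789 for C57BL/6. With voom and library quality weights the adjusted p of Ltbp2 for KK/HlJ was 0.841, the highest of the other fits. The C3H/HeJ value rested on its sham libraries, at 1.33 without replicate 1 and 2.34 without replicate 2, where it was called by edgeR (adjusted p = 0.0151). The KK/HlJ value was called by edgeR without the 4 libraries that stood apart (1.98, adjusted p = 0.0391), without C3H/HeJ sham replicate 1 (0.03) or 2 (0.0252), and when replicate 2 of KK/HlJ ISO day 14 (0.00624) or ISO day 21 (0.00786) was left out. The difference in response was 0.64 for C3H/HeJ minus C57BL/6 (95% confidence interval -0.34 to 1.62; adjusted p = 1), 0.95 for KK/HlJ minus C57BL/6 (-0.03 to 1.93; adjusted p = 0.93) and 0.31 for KK/HlJ minus C3H/HeJ (-0.67 to 1.29; adjusted p = 1). In each of these 3 tests of the difference 0% of genes were called by edgeR (562, 806 and 659 at an unadjusted p under 0.05), while DESeq2 called 4, 30 and 19, and voom 0 in each.

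Tgfbr3 was uneven between strains. In C3H/HeJ it was 116 and 133 CPM at ISO day 14 and 137 and 150 CPM at ISO day 21, against 59.6 and 93.7 CPM in sham libraries. The lower sham value came from replicate 1, one of the 4 libraries that stood apart. In C57BL/6 Tgfbr3 was 173 and 148 CPM at ISO day 14 and 158 and 141 CPM at ISO day 21, against 159 and 191 CPM in sham libraries. The log2 fold change was 0.80 in C3H/HeJ (SE 0.305, unadjusted p = 0.0152, adjusted p = 0.658), and ran from 0.45 to 0.82 over the other fits tried. The difference of C3H/HeJ minus C57BL/6 was 0.98 (SE 0.418, unadjusted p = 0.0284, adjusted p = 1). Neither passed the edgeR test. Tgfb2 differed by 1.05 in C3H/HeJ and by -0.42 in KK/HlJ (adjusted p = 0.818 and 0.959), and its KK/HlJ value was -1.70 when ISO day 14 replicate 2 of that strain was left out and 0.33 when sham replicate 2 was.

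Between the days, Ltbp2 differed by -0.05 over the 3 strains (day 21 over day 14, log2, SE 0.222; adjusted p = 1), and edgeR called 0 of the 10 genes (0 at an unadjusted p under 0.05) and 0% of all genes (293 at an unadjusted p under 0.05, 3 by DESeq2, 0 by voom). The strain values for Ltbp2 were -0.78 in C57BL/6 (SE 0.387; adjusted p = 0.903), 0.00 in C3H/HeJ (SE 0.385; adjusted p = 1) and 0.64 in KK/HlJ (SE 0.386; adjusted p = 1). The Ltbp2 levels in C57BL/6 were 184 and 221 CPM at day 14 and 103 and 132 CPM at day 21. In KK/HlJ they were 226 and 212 CPM at day 14 and 412 and 269 CPM at day 21. The share of all genes whose 2 libraries separate in this way was not counted. The difference of KK/HlJ minus C57BL/6 in the change between days was 1.42 (SE 0.547; 95% confidence interval 0.29 to 2.55; unadjusted p = 0.0165, adjusted p = 1), with 0% of genes called (636 at an unadjusted p under 0.05). These contrasts within strains were added after the data were seen. Tgfb1 differed by -0.38 between the days (SE 0.298; adjusted p = 1), by -0.12 without KK/HlJ ISO day 14 replicate 1 and by -0.079 without the 4 libraries that stood apart.

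Strain differences, averaged over ISO day 14, ISO day 21 and sham, were clearest in Ltbp3, the binding protein known for its part in bone and tooth growth. Ltbp3 ran from 781 to 1088 CPM in C3H/HeJ (median 969 CPM) and from 434 to 671 CPM in C57BL/6 (median 577 CPM), over 6 libraries of each. Its log2 difference was 0.76 (SE 0.175; adjusted p = 0.0435), in a comparison with 0.647% of genes called (102 genes). The Ltbp3 call was lost with offsets for transcript length and GC content (0.51, adjusted p = 0.185). It was also lost without any 1 of 12 libraries: C57BL/6 sham replicate 1 or 2, ISO day 14 replicate 1 or 2 or ISO day 21 replicate 1, C3H/HeJ sham replicate 2, ISO day 14 replicate 1 or 2 or ISO day 21 replicate 1 or 2, and KK/HlJ ISO day 21 replicate 1 or 2. The adjusted p then reached 0.228, with differences of 0.66 to 0.87 over all 18 libraries left out in turn. Ltbp4 lay between 6422 and 10282 CPM in C3H/HeJ, against 3862 to 5638 CPM in C57BL/6, and differed by 0.63 (SE 0.168, edgeR adjusted p = 0.113). It was called by DESeq2 (adjusted p = 0.00525), by voom (0.00298) and without the 4 libraries that stood apart (0.0123), and its value under those offsets was 0.30 (0.668). Without C3H/HeJ sham replicate 1 edgeR called Ltbp4 too (adjusted p = 0.041). Ltbp2 differed by 0.75 (SE 0.224; adjusted p = 0.191; 0.0167 without the 4 libraries), with 58.9 to 385 CPM in C3H/HeJ and 67.8 to 221 CPM in C57BL/6. Tgfbr3 differed by -0.54 (SE 0.197; adjusted p = 0.41), with 59.6 to 150 CPM in C3H/HeJ, against 141 to 191 CPM in C57BL/6. All reads were mapped to a genome derived from C57BL/6, so variants of the other strains can lower their counts.

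In KK/HlJ against C57BL/6, edgeR called 0 of the 10 genes (0 by DESeq2 or voom), in a comparison with 0.273% of genes called (43 genes). An unadjusted p under 0.05 was found for 2 of the 10, against 5.81% of all genes. Ltbp3 differed by 0.44 (SE 0.174; adjusted p = 0.741) and Ltbp2 by 0.51 (SE 0.223; adjusted p = 0.808). In KK/HlJ against C3H/HeJ, edgeR called 0 of 10 as well (1 by DESeq2, 0 by voom), with 0.406% of genes called (64 genes). Here 3 of the 10 had an unadjusted p under 0.05, against 6.3% of all genes. Ltbp1 lay between 147 and 341 CPM in KK/HlJ, against 71.1 to 209 CPM in C3H/HeJ, and differed by 0.64 (SE 0.227; adjusted p = 0.513), and was called without C3H/HeJ sham replicate 2 (0.92, adjusted p = 0.0445). Ltbp4 differed by -0.52 (SE 0.168; adjusted p = 0.385) and Tgfbr3 by 0.62 (SE 0.197; adjusted p = 0.383, or 0.0369 with DESeq2).

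**Figure D5:**
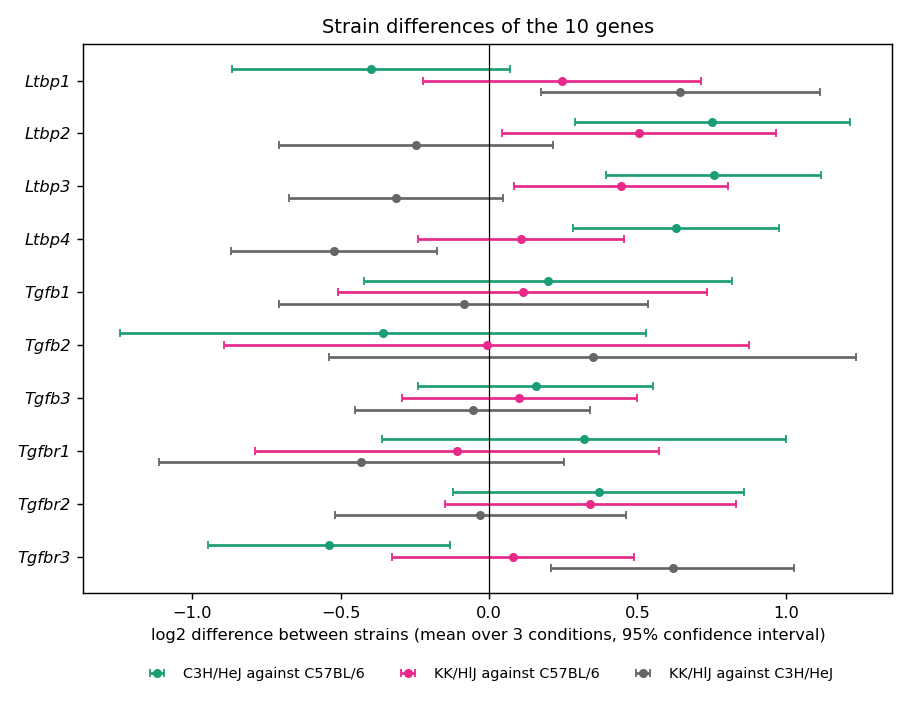
Log2 difference between strains for each of the 10 genes, as the mean over ISO day 14, ISO day 21 and sham with its 95% confidence interval. The difference of Ltbp3 between C3H/HeJ and C57BL/6, 0.76, is the one that passed the test.

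Around the 10 genes, other parts of the pathway were counted over both days in gene lists chosen with earlier results of these data known. Of 30 genes known to respond to TGF-beta, 3 rose and 0 fell, where 0.0508% of all genes were called higher and 0.00634% lower. They were Ltbp2 itself, Postn (periostin, a matricellular protein) and Cilp (a matrix protein known to antagonise TGF-beta1 in cartilage). Postn rose by 2.17 (SE 0.215; adjusted p = 1.49e-05), with medians of 1499 CPM in ISO and 335 CPM in sham libraries. Cilp rose by 1.24 (SE 0.184; adjusted p = 0.00483), with medians of 495 CPM in ISO and 215 CPM in sham libraries, and was not called without C57BL/6 sham replicate 1 (adjusted p = 0.0682). Comp, a pentameric matrix protein, differed by 1.15 (adjusted p = 0.0813, or 0.000708 with DESeq2) and was above both sham libraries of its strain in 12 of 12 ISO libraries. The log2 fold change was positive in 22 of the 30, against 52.2% of all genes, with a median of 0.45, against 0.03 over all genes tested. Acta2 and Tagln of this list are also smooth muscle genes, and over the 12 markers of pericytes and smooth muscle the median was -0.35, with 1 positive.

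Of 34 genes that hold or activate the latent complex in the matrix, 0 passed the edgeR test, where 0.0571% of all genes were called. An unadjusted p under 0.05 was found for 5 higher and 1 lower, against 6.69% of all genes, and 22 were positive, against 52.2% of all genes. Their median was 0.17. Fibronectin (Fn1) differed by 1.14 (SE 0.239; adjusted p = 0.0845), with medians of 1186 CPM in ISO and 544 CPM in sham libraries. It was called by DESeq2 (adjusted p = 0.000223) and by voom (0.0247). Mfap4, a microfibril-associated glycoprotein, differed by 0.69 (adjusted p = 0.237, or 0.0146 with DESeq2), and Emilin1, an elastic fibre protein that binds the TGF-beta1 precursor, by -0.39 (adjusted p = 0.657).

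Of 19 other receptors and antagonists, 0 passed, 1 had an unadjusted p under 0.05 (6.69% of all genes) and 14 were positive (52.2% of all genes), with a median of 0.30. The 3 with the lowest p were Fstl1, a follistatin-like glycoprotein (0.47, adjusted p = 0.649, or 0.83 and 0.0233 without the 4 libraries that stood apart), Acvr1, a type I receptor for BMPs (0.44, adjusted p = 0.769), and Bgn, the proteoglycan biglycan (0.28, adjusted p = 0.801). Of 21 genes of the SMAD pathway, 0 passed, 5 had an unadjusted p under 0.05 (6.69% of all genes) and 17 were positive (52.2% of all genes), with a median of 0.37. Among them Sptbn1, a spectrin that acts as an adaptor for SMADs, differed by 0.68 (adjusted p = 0.332, or 0.0423 with DESeq2), Smurf2, a ubiquitin ligase for SMADs and receptors, by 0.68 (0.43), and Tgif1, a SMAD corepressor, by 0.65 (0.611). Of 12 other ligands of the superfamily 10 were tested, since Mstn and Nodal did not pass the filter, and 0 of the 10 passed, with 1 at an unadjusted p under 0.05 (6.69% of all genes) and 5 positive (52.2% of all genes). Bmp6, a bone morphogenetic protein, differed by 0.46 (adjusted p = 0.707), and by 0.19 without the 4 libraries that stood apart. Inhbb, an activin subunit, differed by -1.36 (adjusted p = 0.775), by -0.39 without those libraries, and was called with no filter on low counts (adjusted p = 0.0336). Gdf15, a stress-induced ligand, differed by -1.35 (SE 1.21; adjusted p = 0.996) and by 2.08 without them.

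As a description, the 5 genes whose log2 CPM correlated most with that of Ltbp2 over the 18 libraries, among 10046 others with a mean of at least 5 CPM, were Fn1 (r = 0.906), Olfml2b (0.898), Dkk3 (0.884), Sfrp2 (0.873) and Prg4 (0.862). The 18 libraries share conditions and strains, so they are not independent points. With each strain's mean subtracted, the 5 highest were Comp (0.911), Sfrp2 (0.91), Olfml2b (0.901), Prg4 (0.896) and Fn1 (0.895). Olfml2b encodes an extracellular olfactomedin-like protein, Dkk3 a secreted Dickkopf family protein, Sfrp2 a secreted modulator of Wnt signalling and Prg4 the proteoglycan lubricin. Of the other 9 genes, Tgfb3 was the most like Ltbp2 (r = 0.763), followed by Tgfbr2 (0.632), Ltbp3 (0.619) and Ltbp4 (0.441), while Tgfb1 (0.0777) and Tgfb2 (0.0105) were the least. With strain means subtracted the order was Tgfb3 (0.76), Ltbp3 (0.678), Tgfbr2 (0.594), Ltbp1 (0.533), Tgfbr3 (0.461), Ltbp4 (0.408), Tgfb2 (0.0891), Tgfbr1 (0.0847) and Tgfb1 (0.0276).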

How the data were processed

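Libraries of Thy1+ heart cells were made with a stranded mRNA kit and sequenced as single reads of 50 nt, per the labels' protocols. FastQC, STAR 2.5.3a, edgeR and the mm10 build are named in the submitters' processing notes. The authors deposited raw read counts per Ensembl gene, with no normalization. Which annotation, counting tool and strand option they used is not stated in the labels or files.

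Of 53342 identifiers, 53237 matched GENCODE M21, and the 105 others hold 0.0016% of reads. The members and gene lists were chosen with earlier results of these data known. All 18 libraries entered 1 fit of edgeR's quasi-likelihood test (edgeR 4.0.16, R 4.3.3, TMM scaling, robust) with a term for each of 9 groups (9 residual degrees of freedom). Default filtering left 15762 genes. The threshold for a call was an adjusted p of 0.05 (Benjamini-Hochberg, all genes tested). SEs were derived from the fold change and its F statistic. RPKM uses the length of the union of exons. Ratios of counts had 0.5 added to each count and were tested by exact permutation within strains. Marker sums use CPM by total counts. Correlations use log2 CPM with a prior count of 2. The procedures were tested on simulated data.

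Named genes were the 10 members, in each pathway list those called and otherwise the 3 with the lowest p, and the 5 genes most like Ltbp2. Results were recomputed with DESeq2 1.42.0, with RLE factors, without the low-count filter, with a mean of at least 5 CPM, with a replicate block, with voom (limma 3.58.1) and library quality weights, without the 4 least correlated libraries, without each library in turn (on the same genes) and, added after seeing the data, with offsets for transcript length and GC content. For the ratios, single days, 5 added to each count and permutation within replicate numbers were tried. The 2 libraries of each group differed by more than counting noise (chi-square per degree of freedom 79.8 to 205). Precision is limited by 2 libraries a group, and the labels name no molecular identifiers. Not every overlap of exons is reported here.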

Additional observations from a re-analysis of the deposited data

How the results depend on the processing

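Ltbp2 kept its ISO call at day 14 (1.54 to 1.70), at day 21 (1.40 to 1.65) and over both days (1.47 to 1.67) in each of the 8 other fits. Over the 89 gene fold changes reported, 668 of 711 values from other fits kept direction and side of the threshold, 1 lost its call, 28 gained one and 14 changed sign. Of 1602 values with 1 library left out, 1541 kept both, 13 lost a call, 14 gained one and 34 changed sign. The cause of these changes was not tested.

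Counts of genes called moved with the fit. At ISO day 14 they were 74 with DESeq2, 75 with no filter, 94 without the 4 libraries that correlate least and 18 with offsets, against 6 as reported. At day 21 they were 49, 55, 78 and 11 in the same order, 4 with a mean of at least 5 CPM and 3 with voom, against 7. Over both days they were 100, 97, 141 and 27, 5 with at least 5 CPM and 15 with the replicate block, against 9. In C57BL/6 they were 5 with DESeq2, 8 with no filter, 1 with voom and 2 without the 4 libraries, against 0. In C3H/HeJ they were 67 with DESeq2, 51 with no filter, 0 with at least 5 CPM, 2 with the block and 3 with offsets, against 1. In KK/HlJ they were 147, 89, 82 without the 4 libraries and 2 with offsets, against 0. For day 21 over day 14 they were 3 with DESeq2, 8 with no filter and 1 without the 4 libraries, against 0. With DESeq2, no filter, voom and without the 4 libraries, they were 287, 226, 324 and 414 for C3H/HeJ over C57BL/6 (102 reported), 152, 141, 74 and 146 for KK/HlJ over C57BL/6 (43) and 198, 144, 101 and 146 for KK/HlJ over C3H/HeJ (64). For the differences in response, DESeq2 and no filter gave 4 and 2 for C3H/HeJ minus C57BL/6, 30 and 25 for KK/HlJ minus C57BL/6 (23 without the 4 libraries), and 19 and 15 for KK/HlJ minus C3H/HeJ (22 without them).

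With 1 library left out, the counts ran from 3 to 234 at day 14, 2 to 60 at day 21, 2 to 109 over both days, 0 to 198 in C3H/HeJ, in KK/HlJ 0 to 297, and 0 to 215 for day 21 over day 14. They ran from 54 to 149 for C3H/HeJ over C57BL/6, 27 to 357 for KK/HlJ over C57BL/6 and 38 to 316 for KK/HlJ over C3H/HeJ, and for the responses from 0 to 95, 0 to 58 and 0 to 130 in the order above. The highest counts came without KK/HlJ ISO day 14 replicate 2 (234, 297, 215, 357, 316, 58, 130), C3H/HeJ sham replicate 2 (109, 198, 149, 95) or KK/HlJ ISO day 21 replicate 2 (60).

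Without the 4 libraries, sign changed for Ltbp1 (-0.044), Ltbp4 (-0.15) and Tgfbr2 (-0.034) at day 14, Ltbp4 (-0.15) and Tgfb1 (0.30) at day 21, and Ltbp4 (-0.15) and Gdf15 (2.08) over both days. With offsets it changed for Tgfbr3 in KK/HlJ (-0.0059) and Ltbp4 in KK/HlJ over C57BL/6 (-0.18). For Ltbp2 in C3H/HeJ, day 21 over day 14 was -0.0033 with DESeq2 and with RLE scaling, -0.011 with at least 5 CPM, -0.060 with voom and -0.18 with offsets. With 1 library left out, sign changed within these ranges: Ltbp1 (-0.0029 to 0.44), Ltbp4 (-0.058 to 0.16) and Tgfb2 (-0.42 to 0.72) at day 14, Ltbp4 (-0.075 to 0.14) and Tgfb1 (-0.32 to 0.27) at day 21, and Ltbp4 (-0.067 to 0.15), Tgfb1 (-0.12 to 0.45), Tgfb2 (-0.020 to 0.66) and Gdf15 (-2.89 to 1.57) over both days. In KK/HlJ they were Tgfb2 (-1.70 to 0.33) and Tgfbr3 (-0.15 to 0.39), and over C57BL/6 Tgfbr3 (-0.017 to 0.16). The others were Ltbp2 for day 21 over day 14 (-0.19 to 0.12, and -0.43 to 0.47 in C3H/HeJ), the response of Tgfb2 in C3H/HeJ minus C57BL/6 (-0.026 to 0.75) and that of Ltbp2 (KK/HlJ minus C3H/HeJ, -0.30 to 0.70).

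Of the ratios, those to Tgfb2 and Tgfbr1 no longer passed on ISO day 21 alone (1.26 and 1.27, adjusted p = 0.0833 and 0.102, exact permutation test) or without the 4 libraries (1.06 and 0.69). With 1 library left out they ran from 1.12 to 1.62 and from 0.80 to 1.54.

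No pairing by replicate number was common to all groups: over 36 pairs of groups, the correlation of same-numbered deviations ran from -0.37 to 0.36, above 0.1 in 13. The 4 libraries that stood apart were all replicate 1, and a batch shared by only some groups was not tested. With the replicate block Ltbp2 kept its 3 calls, and 8 genes were called at day 14 and 6 at day 21. With 2 libraries a group, strain responses are imprecise: the 95% interval of the Ltbp2 difference of KK/HlJ minus C57BL/6 runs from -0.033 to 1.93. Tgfb2, with 53 reads in its lowest library, is the least precise of the 10 genes.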
